A study of Mus musculus with 20 samples.

Results

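Rods of GFP control retinal explants were compared between 2 ages, P5 and P2. Of the 49665 cells in the 8 control libraries, the authors annotated 23966 as rods, 13602 at P2 and 10364 at P5, and these are the cells described here. The whole series holds 79009 cells, of which 38650 are annotated as rods, and its MEIS-treated libraries were left out, except that P2 combination 2, a library labelled as treated with a MEIS combination, stands in for P2 control 1 in 1 alternative. All control explants came from wildtype CD1 mice, an outbred albino stock, and received a GFP construct without a transcription factor, which the series' design text calls pCAGIG, an empty vector. They therefore share the explant culture, the DNA delivery and the isolation of GFP-positive cells, and differ in stated age: postnatal day 2 or postnatal day 5, with 4 libraries each. The same design text gives 2 or 5 days of treatment instead of an age, and names NR2F1 and NR2F2 where the sample labels and title name MEIS factors, so P2 and P5 are used here as the labels give them. Age therefore cannot be told apart here from time in culture or time since delivery. Isolating cells that carry a delivered plasmid selects cells that took it up, so these rods are a sample of the electroporated lineage and not of all rods. Whether libraries came from separate litters or cultures is not given in the sources used here, and the p-values measure the spread between libraries, which may be partly technical.

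Rods are the photoreceptors of dim light. In the mouse most of them are born around birth, and for days afterwards a newborn rod is a postmitotic precursor without an outer segment. The transcription factors OTX2 and CRX set the photoreceptor fate, NRL and its target NR2E3 turn precursors toward rods and away from cones, and the genes of the light response follow. Light leads to activation of the G protein transducin. Transducin activates the phosphodiesterase PDE6, cyclic GMP falls and the cyclic nucleotide-gated channel closes. Arrestin, the receptor kinase GRK1 and the RGS9 complex end the response, and recoverin restrains the kinase. All of this takes place in the outer segment, a modified cilium that depends on transport along the connecting cilium, and the signal leaves through a ribbon synapse.

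Levels are given as UMIs of the gene per 1000000 UMIs of the rods of a library (CPM), scaled by TMM factors in comparisons of rods over age. They are unscaled in the marker check that follows and in sums of lists. Means of a gene set beside its difference between cell types were scaled within each cell type. Nrl in neurogenic cells therefore has slightly different values here and there. The annotated rods carried the rod marker Nrl. Mean unscaled CPM of Nrl, the rod-determining factor, was 309 at P2 and 544 at P5 in rods, against 21.8 and 15.0 in neurogenic cells and 46.0 and 41.7 in amacrine cells. Not every rod marker did the same. The shares of cells with Sag or Gnat1, given below, did not set the rods of every P2 library apart from amacrine cells. The short-wave cone opsin Opn1sw stood at 22.4 and 14.9 CPM in rods and at 955 and 677 CPM in cells annotated as cones. The listed cone genes together differed less. Their sum had a mean of 2744 CPM at P2 and 2574 CPM at P5 in rods, against 8760 and 5971 CPM in cones. Libraries contributed 1223 to 6928 rods and 5464307 to 38376123 rod UMIs, with P2 control 1 the largest on both counts. Median UMIs per rod lay between 1728 and 4867 in P2 libraries and between 2463 and 7053 in P5 libraries. The median mitochondrial share was 2.10% to 5.2% in P2 libraries and 3.31% to 10.1% in P5 libraries, with the 10.1% in P5 control 1. Cell names in P2 control 1 carry the prefix of a combination library, those of the library labelled P2 combination 2 that of a control, and 52 rod barcodes occur in more than 1 control library. Results are therefore also given without P2 control 1 and P5 control 1 together, a choice made after seeing the data, and P2 combination 2 in place of P2 control 1 is among the alternatives.

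A total of 13379 genes had enough counts to be tested. At P5, 806 genes were higher (6.02% of those tested) and 643 were lower (4.81%), at a Benjamini-Hochberg adjusted p under 0.05 in edgeR's quasi-likelihood test. A gene that was not called is not thereby shown to be unchanged. Of the called genes, 562 of the higher and 475 of the lower genes changed by more than 2-fold. All 1449 calls were also made by DESeq2 with the same direction. In 1285 genes (9.6%) every P5 library lay above every P2 library, and in 1126 (8.42%) every P5 library lay below. The number of calls depended on single libraries: without P2 control 3 it fell to 358 higher and 278 lower, without P5 control 2 to 377 and 233, and without P5 control 4 to 416 and 214. Leaving out P2 control 2 gave 464 and 391 calls, P2 control 4 gave 493 and 326, and P5 control 1 gave 553 and 393. No called gene turned direction in any of the 8 fits that leave out 1 library, and 313 higher and 180 lower genes were called in all 8. Without both P2 control 1 and P5 control 1, 691 genes were higher and 528 lower, of which 569 and 378 were among the 806 and 643.

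The genes of the rod light response rose together. Of 22 such genes, all of them tested, 18 were higher at P5 and none was lower, with a median log2 fold change of 2.59 against -0.0029 over all genes tested. The share of all tested genes called higher was 6.02%. No member of this list, or of the outer segment, cilium, synapse and glycolysis lists described next, was lower even at an unadjusted p under 0.05 (0 genes in each) or in DESeq2. Leaving out single libraries left between 12 (without P2 control 3) and 19 of them called, and leaving out P2 control 1 and P5 control 1 together left 16. Channel, recovery and G protein genes all took part, while a few members were not called.

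Both channel genes rose. Cnga1, the alpha subunit of the cyclic GMP-gated channel (chr5:72603696-72644275, minus strand, GRCm38), had 16.6, 35.7, 9.23 and 6.69 CPM in P2 controls 1 to 4 and 403, 505, 145 and 374 CPM in P5 controls 1 to 4. The lowest P5 library was far above the highest P2 library. Its log2 fold change was 4.38 ± 0.57 (SE; 4 against 4 libraries), a 20.8-fold rise, with an edgeR adjusted p of 0.00505. Cngb1, the beta subunit, rose 10.5-fold, from 40.5, 31.6, 19.1 and 13.4 to 235, 433, 165 and 273 CPM (adjusted p = 0.00376, edgeR). Both subunits of the heteromeric channel were thus called, as they were in each of the 8 fits without a library.

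The promoters of 4 called genes are shown because each holds a short motif of a photoreceptor regulator, either the CRX core TAATCC or the NRL core TGCTGA. They are the 250 bases before the RefSeq start of the gene (GRCm38.p6), printed 5′ to 3′ on the gene's strand, with matches on either strand in capitals. The promoter of Cnga1 is chr5:72642753-72643002 on the minus strand, and its RefSeq start lies inside the longer gene span given above. That of Cngb1 is chr8:95306586-95306835 on the minus strand, that of Pde6b chr5:108388123-108388372 on the plus strand, and that of Aipl1, a chaperone that PDE6 needs, chr11:72037510-72037759 on the minus strand. The match near the start in Aipl1 is the reverse complement of the CRX core, GGATTA, and the upstream one is the NRL core. Pde6b holds the NRL core next to its start.
Cnga1: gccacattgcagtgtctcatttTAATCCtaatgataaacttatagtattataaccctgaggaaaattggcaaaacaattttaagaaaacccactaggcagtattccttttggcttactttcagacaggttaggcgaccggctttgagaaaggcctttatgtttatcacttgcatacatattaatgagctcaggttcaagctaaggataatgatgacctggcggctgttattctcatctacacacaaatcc
Cngb1: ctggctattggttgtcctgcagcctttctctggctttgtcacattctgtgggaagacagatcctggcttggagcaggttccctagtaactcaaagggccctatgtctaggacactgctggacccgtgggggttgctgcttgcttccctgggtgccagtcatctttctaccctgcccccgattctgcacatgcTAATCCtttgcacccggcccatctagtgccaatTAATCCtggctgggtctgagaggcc
Pde6b: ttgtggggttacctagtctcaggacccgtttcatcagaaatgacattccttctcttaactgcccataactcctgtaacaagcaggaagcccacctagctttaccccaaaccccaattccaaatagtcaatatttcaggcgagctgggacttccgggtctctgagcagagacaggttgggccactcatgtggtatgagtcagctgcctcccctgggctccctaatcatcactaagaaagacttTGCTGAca
Aipl1: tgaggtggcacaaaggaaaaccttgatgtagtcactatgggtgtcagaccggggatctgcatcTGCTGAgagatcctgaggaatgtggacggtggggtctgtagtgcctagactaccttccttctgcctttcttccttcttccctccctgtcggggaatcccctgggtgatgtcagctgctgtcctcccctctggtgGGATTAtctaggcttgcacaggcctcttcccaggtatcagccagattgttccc

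Among the 36 called genes of the phototransduction and outer segment lists, 28 had a promoter entry. The CRX core, searched on both strands, occurred in 10 of these 28 (35.7%), against 572 of the 9944 tested genes with an entry (5.75%) and 7.16% of all 27025 entries. The NRL core, with reverse complement TCAGCA, occurred in 8 of 28 (28.6%), against 14.8% of tested genes and 19.1% of all entries. Over all listed members with an entry, called or not, the CRX core was in 13 of 34 (38.2%) and the NRL core in 10 of 34 (29.4%), so that the shares among called members were no higher than among all members. The motifs share no overlap as words. These are letter matches in a 250-base window, and no binding was measured.

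The subunits of the G protein differed in level. Gnat1, the rod transducin alpha subunit, had 0.839 to 2.14 CPM at P2 and 1.55 to 10.1 CPM at P5, and missed the threshold (log2 1.90 ± 0.56, edgeR adjusted p = 0.0556). It was called by DESeq2 (0.0131) and by edgeR without P2 control 1 (0.0421), with P2 combination 2 in its place (0.0407) or without P5 control 3 (0.0142). The other transducin subunits were more abundant: Gngt1, the gamma subunit, went from 206, 248, 273 and 167 to 1570.4, 3005, 483 and 1643 CPM (7.49-fold). Gnb1, the beta subunit, was also called, with a log2 fold change of 1.75. These are counts of 3′ ends, so that levels of different genes can be set side by side without a length correction, though capture may differ between genes.

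Of the genes of cyclic GMP turnover named here, Pde6b, Pde6g, Gucy2e, Gucy2f and Guca1b were called higher, and Pde6a and Guca1a were not called. Pde6b, the beta subunit of the phosphodiesterase, rose from 82.6, 49.3, 44.9 and 33.6 to 446, 522, 209 and 423 CPM (7.56-fold, log2 2.92 ± 0.35, edgeR adjusted p = 0.00385). Pde6g, its inhibitory gamma subunit, rose 7.08-fold. Pde6a, the partner of Pde6b in the catalytic dimer, lay between 2.31 and 19.7 CPM at P2 and between 7.27 and 26.5 CPM at P5 and was not called (log2 1.15, adjusted p = 0.291). The guanylate cyclases that restore cyclic GMP were both called, Gucy2e with a log2 fold change of 2.95 and Gucy2f with 3.47. Gucy2f rests on low values, 0 to 1.13 CPM at P2 and 1.96 to 16.6 CPM at P5, and its call was lost without P2 control 2 (0.055), P2 control 3 (0.0575) or P5 control 2 (0.0607). Of the cyclase-activating proteins, Guca1b was called (log2 2.11, adjusted p = 0.0451) and Guca1a was not, with a log2 fold change of 0.01.

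Genes that end the light response, or restrain its end, rose as well. Sag, rod arrestin (chr1:87803680-87845158, plus strand), had 1132, 634, 461 and 204 CPM at P2 and 4273, 6029, 2921 and 3786 CPM at P5. The groups did not overlap, and the P2 libraries spread widely, with P2 control 1 high and P2 control 4 low. It rose 6.99-fold (log2 2.81 ± 0.50, edgeR adjusted p = 0.00972). Rcvrn, recoverin, the calcium sensor that restrains the receptor kinase, went from 39.4, 31.3, 22.5 and 10.9 to 284, 659, 209 and 321 CPM, a 14.0-fold rise (adjusted p = 0.00395). Grk1, that kinase itself, had a log2 fold change of 2.08. Rgs9 and its anchor Rgs9bp, which speed the shut-off of transducin, had 2.49 and 2.19. Unc119, which carries lipid-modified transducin, was already at 917 to 1030.0 CPM at P2 and reached 1202 to 1711 CPM at P5. Its groups did not overlap, yet the change of log2 0.48 was not called (edgeR adjusted p = 0.188), though it was by DESeq2 (0.0332).

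**Figure D1:**
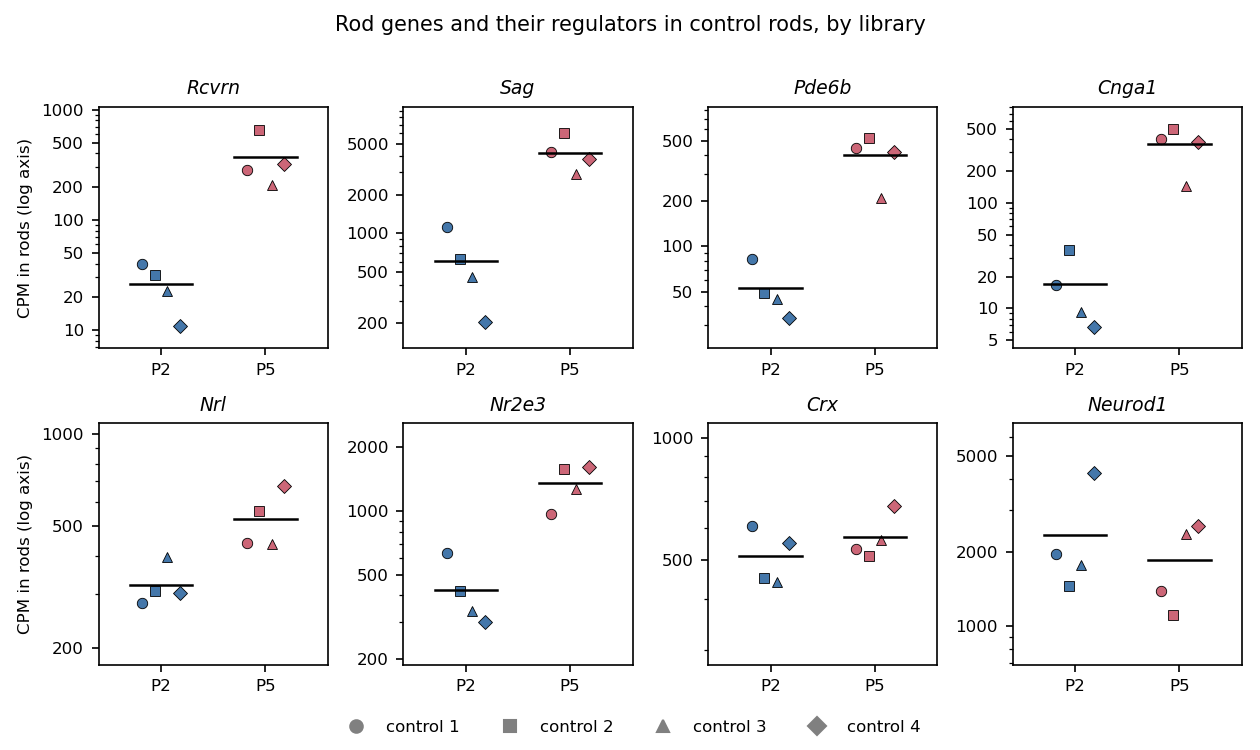
Level of rod genes in each control library, with CPM on a logarithmic vertical axis, 1 point per library, lines at the means and the 2 ages in separate columns. Cnga1, Sag and Nr2e3 show P5 libraries above all P2 libraries, as does Nrl with a smaller gap, and P5 control 3 is the lowest P5 library for Cnga1 at 145 CPM.

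Outer segment genes followed the light response. Of 23 listed genes, 22 were tested and 18 rose, against 6.02% of all tested genes called higher. None was lower, the median log2 fold change was 1.53, and Drd4 was below the filter on low counts. Between 14 (without P2 control 3 or P5 control 2) and 19 were called when 1 library was left out, and 18 without P2 control 1 and P5 control 1. The largest change named was that of a matrix gene: Impg1, a proteoglycan of the interphotoreceptor matrix, went from 12.7, 10.9, 4.41 and 1.89 to 118, 237, 37.3 and 94.3 CPM, a 15.5-fold rise (log2 3.95 ± 0.65, edgeR adjusted p = 0.00772). No P5 library came near the P2 range.

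The retinol dehydrogenases that reduce all-trans retinal after bleaching were called, Rdh12 at 9.49-fold (25.6, 19.8, 9.65 and 5.53 CPM at P2 against 149.8, 244, 98.5 and 98.0 CPM at P5) and Rdh8 at 7.77-fold. Rdh8 was at 24.0 CPM or less in every library, and its adjusted p was 0.0501 without P5 control 2. Prph2, the peripherin that shapes disc rims, rose 4.22-fold, from a mean of 195 ± 62.3 to 824 ± 206 CPM (SD, n = 4 each). Its partner Rom1 had a log2 fold change of 0.94. Aipl1, whose promoter is printed above, went from 51.9, 41.4, 23.7 and 22.8 to 263, 376, 167 and 225 CPM (7.30-fold). Genes already abundant at P2 included Rbp3, the retinoid carrier of the matrix, at 226 to 317 CPM, and Mak, a ciliary kinase, at 241 to 271 CPM. They reached 272 to 527 CPM and 260.1 to 406 CPM at P5 and were not called (edgeR adjusted p = 0.102 and 0.192). Rbp3 was called by DESeq2 (0.0417), at equal depth per rod (0.0415) and without P5 control 3 (0.0282). Abca4, the flippase of retinal conjugates, had a log2 fold change of -0.59 and was not called either.

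Genes of the cilium and its transport rose by smaller factors. Of 26 listed, 25 were tested and 16 were higher, against 6.02% of all tested genes. None was lower, and the median log2 fold change was 0.81. Ift57, of the anterograde transport complex, went from 28.2, 19.96, 21.8 and 16.01 to 58.6, 87.3, 44.5 and 60.0 CPM (2.89-fold, edgeR adjusted p = 0.00724). Arl6, the small GTPase that recruits the BBSome, went from 116, 74.6, 78.3 and 104 to 208, 396, 184 and 253 CPM (2.78-fold), and Bbs7, a BBSome subunit, rose 2.68-fold. Ift122, of the retrograde complex, rose 2.29-fold, to 39.0 to 60.7 CPM. Each of these 4 genes was called in all 8 fits without a library, whereas Ift20 (log2 -0.26) and Ift74 (0.47) were not called from all libraries. The count of called members was less steady: it was 10 without P2 control 2, 8 without P2 control 3, 8 without P5 control 2 and 7 without P5 control 4. It was 11 without P2 control 1 and P5 control 1, while the median stayed between 0.76 and 0.88 in the 8 fits.

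Genes of the photoreceptor ribbon synapse rose in part. Of 25 tested, 11 were higher, against 6.02% of all tested genes, and none was lower, with a median log2 fold change of 0.74. Slc17a7, the vesicular glutamate transporter, went from 56.8, 33.6, 25.6 and 16.9 to 165, 263, 91.7 and 178 CPM (5.19-fold, log2 2.38 ± 0.40, edgeR adjusted p = 0.00818). Elfn1, the adhesion protein with which rods contact their bipolar cells, went from 20.2, 19.7, 10.9 and 6.99 to 55.4, 101, 35.7 and 76.1 CPM (4.56-fold). The groups of neither gene overlapped. Cacna1f, the pore of the synaptic calcium channel, rose 3.75-fold and its regulator Cabp4 9.51-fold, both from low levels (2.77 to 12.4 and 0.291 to 2.18 CPM at P2). The call for Cacna1f was lost without P2 control 3 (0.0704), P5 control 2 (0.0713) or P5 control 4 (0.0623), and without P2 control 1 and P5 control 1 together (0.0511).

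Of the 25 synapse genes, 14 were not called. Ctbp2, whose long form makes the ribbon, had a log2 fold change of -0.14, and Bsn, the ribbon anchor, 0.05, while Snap25, a fusion protein, was at 677 to 1384 CPM at P2 and 1371 to 2016 CPM at P5 (log2 0.74, edgeR adjusted p = 0.112). Snap25 was called by DESeq2 (0.027), without P2 control 1 (0.0376) and with P2 combination 2 in its place (0.0433). The count of called synapse genes fell to 7 without P2 control 3, P5 control 2 or P5 control 4, rose to 16 without P2 control 1, and was 12 without P2 control 1 and P5 control 1 together.

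**Figure D2:**
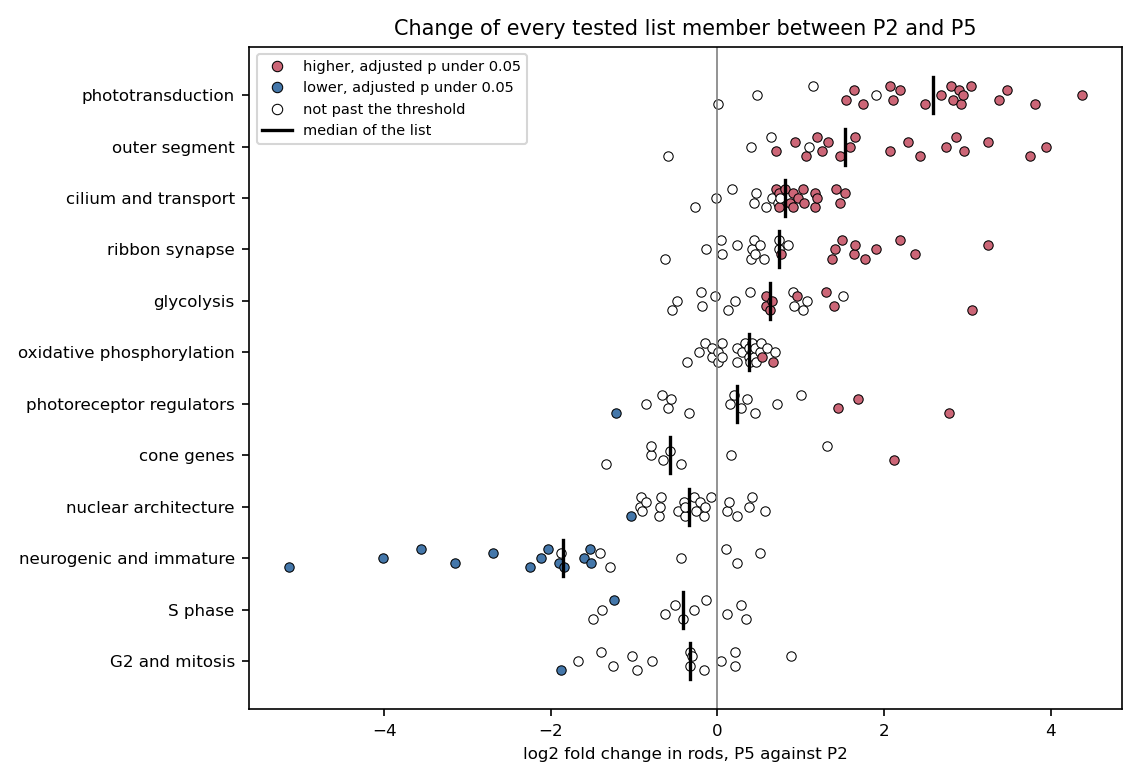
Log2 fold change, P5 against P2, of every tested member of the gene lists in rods, with 1 point per gene and each list's median marked. Filled points passed the threshold. Phototransduction genes and all but 1 of the outer segment genes lie above 0 (medians 2.59 and 1.53), neurogenic and immature neuron genes mostly below (median -1.86), and the cell cycle lists closer to 0 (medians -0.42 and -0.33).

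Of 21 glycolysis genes, 8 were higher, against 6.02% of all tested genes, and none was lower, with a median log2 fold change of 0.63. Photoreceptors are known for high aerobic glycolysis. The rise was not particular to rods. The mean sum of the list went from 2957 to 4397 CPM in rods, 2276 to 3504 CPM in neurogenic cells and 3270 to 5423 CPM in progenitors. In amacrine cells it went from 2118 to 2072 CPM and in cones from 3674 to 2727 CPM. Hk1, the hexokinase at the entry of the pathway, went from 12.7, 16.5, 3.78 and 7.71 to 88.4, 134, 38.9 and 85.7 CPM (8.34-fold, log2 3.06 ± 0.46, edgeR adjusted p = 0.00724). No other member changed as much: Aldoa, an aldolase, rose 2.63-fold, Pfkl, a phosphofructokinase, 2.47-fold, and Gapdh 1.94-fold. Gapdh was not called without P2 control 2 (0.0598), P2 control 3 (0.0588), P5 control 2 (0.0522) or P5 control 4 (0.0533). Ldha, the lactate dehydrogenase subunit, was at 1116 to 1575 CPM at P2 and 1109 to 1678 CPM at P5 (log2 0.21, adjusted p = 0.61). Only 3 members were called without P2 control 2, P2 control 3, P5 control 2 or P5 control 4, and 5 without P2 control 1 and P5 control 1.

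Of 27 nuclear genes of oxidative phosphorylation, 2 were called, both higher, a share near the 6.02% of all tested genes: Ndufv1, of complex I, rose 1.59-fold, from 67.6 to 78.8 CPM at P2 to 98.2 to 146 CPM at P5. Sdha, of complex II, rose 1.45-fold, from 69.7 to 86.6 CPM to 104 to 118 CPM. Neither call was stable: Ndufv1 was called only without P2 control 1 or P5 control 3 (adjusted p between 0.0506 and 0.0803 in the other fits, and 0.0599 without P2 control 1 and P5 control 1), and Sdha only without P2 control 1 (0.056 to 0.102 in the other fits). Sdha was also not called without TMM scaling (0.0503) or with all genes kept whatever their counts (0.110). None of the 13 mitochondrially encoded genes was called by edgeR, 2 had an unadjusted p under 0.05, DESeq2 called 1, and the median log2 fold change was 0.76. Their P5 values were led by P5 control 1, the library with the highest mitochondrial share, which is itself computed from these genes. There mt-Co1 was at 20713 CPM, and in the other P5 libraries it was at 5179 to 9723 CPM.

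Of 16 tested regulators of photoreceptors, 3 were higher and 1 was lower, against 6.02% and 4.81% of all tested genes, with a median log2 fold change of 0.24. Nr2e3, the nuclear receptor that represses cone genes in rods (chr9:59942771-59960659, minus strand), went from 634, 420.3, 339 and 301 to 972, 1578, 1274 and 1620.4 CPM (3.21-fold, log2 1.68 ± 0.30, edgeR adjusted p = 0.00933). Nrl went from 281, 306, 396 and 302 to 439, 561, 438 and 677 CPM. All P5 libraries were above all P2 libraries, but the change of log2 0.72 ± 0.21 was not called (adjusted p = 0.0568). It was called by DESeq2 (0.00515) and by edgeR without P5 control 3 (0.0483), with no TMM factors (0.037), at equal depth per rod (0.0449), in rods under 10% mitochondrial UMIs (0.0417) and with P2 combination 2 in place of P2 control 1 (0.0337). Crx was at 439.9 to 607 CPM at P2 and 512 to 678 CPM at P5, with overlapping groups and a log2 fold change of 0.16 ± 0.20 (adjusted p = 0.656).

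Both other called regulators that rose are repressors in photoreceptors. Samd7, a polycomb-associated protein, went from 174, 108, 136 and 171 to 386, 338, 385 and 491 CPM (2.72-fold), and Ankrd33, an inhibitor of CRX activity, from 12.6, 6.20, 4.62 and 4.37 to 50.4, 70.9, 34.5 and 45.4 CPM (6.86-fold). Each was called in all 8 fits without a library. Rorb, a nuclear receptor that acts upstream of Nrl, fell 2.33-fold, from 3364, 3484, 3597 and 4915 to 1351, 1062, 2333 and 1858 CPM (edgeR adjusted p = 0.0374). That call was kept only without P2 control 1 or P5 control 3. It was lost without P2 control 2 (0.0692), P2 control 3 (0.072), P2 control 4 (0.0886), P5 control 1 (0.0962), P5 control 2 (0.123) or P5 control 4 (0.098), and without P2 control 1 and P5 control 1 together (0.0744) or with no filter on low counts (0.0701).

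Otx2, Neurod1 and Prdm1, regulators that act early in photoreceptors, were not called. Otx2 had 898 to 2086 CPM at P2 and 551 to 1323 CPM at P5 (log2 -0.66 ± 0.36, edgeR adjusted p = 0.26). Neurod1 had 1453 to 4247 CPM at P2 and 1102 to 2559 CPM at P5 (log2 -0.34 ± 0.41, adjusted p = 0.635), and its sign turned without P2 control 4, the library at 4247 CPM. Prdm1, which keeps precursors from the bipolar fate, was lower in every P5 library than in every P2 library (227 to 458 against 474 to 744 CPM) and missed the threshold (log2 -0.86 ± 0.27, adjusted p = 0.0652). It passed in DESeq2 (0.0112), at equal depth per rod (0.0463) and without P5 control 3 (0.0168).

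Of 9 tested cone genes, 1 was called, near the share of 10.8% of all tested genes called in either direction. It was Thrb, the thyroid hormone receptor that directs cone opsin choice, which went from 141, 102, 48.3 and 47.4 to 451, 573, 156 and 301 CPM in rods (4.36-fold, log2 2.12 ± 0.46, edgeR adjusted p = 0.0184). The call was lost without P2 control 3 (0.0588), P2 control 4 (0.0506) or P5 control 2 (0.0533). The cone genes Gngt2 and Gnb3 were abundant in rods at both ages, at 847 to 2394 and 488 to 694 CPM at P2 and 532 to 1779 and 528 to 827 CPM at P5, with overlapping groups. The list's median log2 fold change was -0.57.

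Genes of neurogenesis and immature neurons fell. Of 21 listed, 20 were tested and 13 were lower, against 4.81% of all tested genes. No member was called higher, the median log2 fold change was -1.86, and Olig2 was below the filter. The number called lower was 7 without P5 control 2 or P5 control 4, and 12 without P2 control 1 and P5 control 1. None was higher at an unadjusted p under 0.05 or in DESeq2. Atoh7, a proneural factor of early retinal neurons (chr10:63099651-63101279, plus strand), went from 18.2, 14.4, 33.4 and 54.1 to 0.307, 0.654, 1.80 and 0.614 CPM (log2 -5.14 ± 0.60, edgeR adjusted p = 0.00376). The highest P5 value was below the lowest P2 value.

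Of the listed genes, 3 encode ligands of Notch, and all were called from all libraries, though Dll4 rests on few of the fits. Dll3 went from 37.8, 33.1, 44.7 and 50.1 to 1.66, 0.654, 8.91 and 2.66 CPM (log2 -3.56 ± 0.60) and Dll1 from a mean of 17.0 ± 5.60 to 4.71 ± 0.784 CPM (SD, n = 4 each, log2 -1.84). Dll4, at 2.65 to 13.5 CPM at P2 and 0 to 2.37 CPM at P5, was called from all libraries (edgeR adjusted p = 0.0451). That call was kept only without P2 control 1 or P5 control 3, and adjusted p was 0.0797, 0.0905 and 0.116 without P2 controls 2, 3 and 4, 0.1, 0.0784 and 0.12 without P5 controls 1, 2 and 4, and 0.0677 without P2 control 1 and P5 control 1. It was 0.0507 in rods under 10% mitochondrial UMIs. Among cytoskeletal genes of young neurons, Stmn1, a microtubule destabiliser, went from 740.3, 1113, 1706 and 1484 to 220.2, 167, 584 and 188 CPM (log2 -2.12). Sox4 (log2 -1.29, adjusted p = 0.164, but 0.0162 without P5 control 3) and Btg2 (log2 -0.44) were not called, and their P5 groups were spread by P5 control 3, at 656 and 902 CPM against 77.9 to 221 and 159 to 361 CPM in the others.

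**Figure D3:**
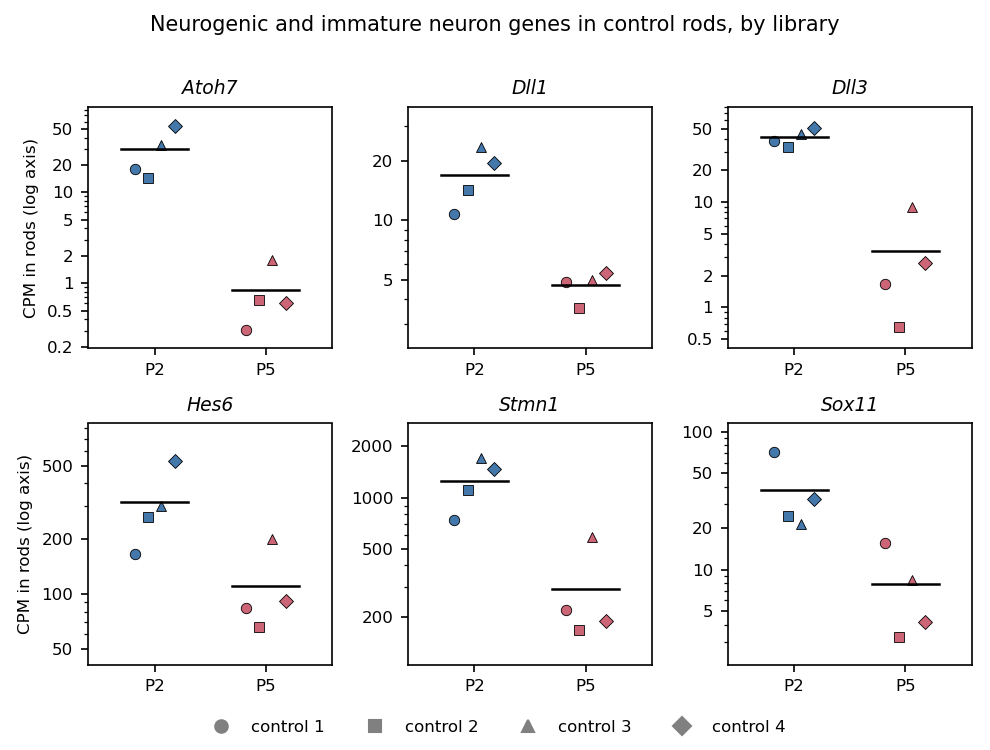
Level of genes of neurogenesis and immature neurons in each control library, with CPM on a logarithmic vertical axis, 1 point per library and lines at the means. Atoh7 and Dll3 are lower in all P5 libraries, and P5 control 3 is the highest of the P5 libraries in both (1.80 and 8.91 CPM).

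The cell cycle lists held 1 called gene each, against a share of 4.81% called lower over all tested genes. Of the 11 genes of S phase, 1 was lower, Mcm7, of the replicative helicase, which went from 40.1 to 85.0 CPM at P2 to 19.5 to 39.5 CPM at P5 (log2 -1.24 ± 0.28, edgeR adjusted p = 0.0214). It was not called without P2 control 3 (0.0612), P2 control 4 (0.0533), P5 control 1 (0.0534), P5 control 2 (0.0673) or P5 control 4 (0.0588). Of 15 tested genes of G2 and mitosis, 1 was lower, Cdk1, at 1.84 to 3.48 CPM at P2 and 0.307 to 1.39 CPM at P5 (adjusted p = 0.0436). The call for Cdk1 was kept only without P2 control 1 or P5 control 3 (0.104, 0.109 and 0.0673 without P2 controls 2, 3 and 4, 0.106, 0.114 and 0.122 without P5 controls 1, 2 and 4, and 0.0866 without P2 control 1 and P5 control 1), and was lost without TMM scaling (0.0512) or with all genes kept (0.0631).

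Rod nuclei reorganise their chromatin during maturation. Of 24 tested genes of nuclear architecture, 1 was lower, a share near the 4.81% of all tested genes. It was Hmgb3, a chromatin protein of proliferating cells, which went from 178, 179, 230.4 and 229 to 75.0, 64.3, 162 and 96.3 CPM (log2 -1.04, edgeR adjusted p = 0.0392). Its call was kept only without P2 control 1 or P5 control 3 (0.065, 0.0965 and 0.0906 without P2 controls 2, 3 and 4, 0.0973, 0.101 and 0.108 without P5 controls 1, 2 and 4, and 0.0858 without P2 control 1 and P5 control 1), and was lost with no TMM factors (0.0558). Lbr, the lamin B receptor that rods switch off, had a log2 fold change of 0.14 (adjusted p = 0.69), and the list's median was -0.33. Of 11 tested genes of apoptosis, 1 was higher and 2 were lower, against 6.02% and 4.81% of all tested genes. Hrk, a BH3-only activator, rose from 0.873 to 1.66 CPM at P2 to 2.53 to 6.34 CPM at P5, and the apoptosome scaffold Apaf1 fell 1.66-fold. Hrk was not called without P5 control 4 (0.0524). Apaf1 was not called without P2 control 2 (0.0537), P5 control 2 (0.0688), P5 control 4 (0.0713) or P2 control 1 and P5 control 1 (0.0708), nor without TMM scaling (0.0602), with all genes kept (0.0592) or with rods thinned to 2000 UMIs (0.0576).

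Genes of cytosolic ribosomal proteins leaned lower. Of 82 tested, 79 had a negative log2 fold change, with a median of -0.94 against -0.0029 over all genes tested. Of the 82, 13 were called lower, against a share of 4.81% of all tested genes. The number called depended on the library left out: it was 60 without P2 control 1, 31 without P2 control 1 and P5 control 1, 7 without P5 control 3, 4 without P2 control 2, 1 without P2 control 3, P2 control 4 or P5 control 1, and 0 without P5 control 2 or P5 control 4. DESeq2 called 60.

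The delivered construct and the factors of the series were checked in the same cells. GFP went from 24142, 5222, 12320.1 and 24254 to 2803, 3171, 3361 and 2786 CPM (5.44-fold lower, log2 -2.44 ± 0.51, edgeR adjusted p = 0.0166). P2 control 2 was far below the other P2 libraries, the P5 libraries lay within a narrow range, and the groups did not overlap. The call was lost without P5 control 2 (0.061) or P5 control 4 (0.0623), and with P2 combination 2 in place of P2 control 1 (0.0564). Of the endogenous Meis genes, Meis2 fell 2.02-fold, from 1313, 1456, 1362 and 1380.2 to 539, 553, 927 and 709 CPM (adjusted p = 0.0249). Without 1 library that call was kept only without P2 control 1 or P5 control 3, with adjusted p from 0.0537 to 0.0887 in the other 6 fits and 0.0584 without P2 control 1 and P5 control 1. Meis1 was at 188 to 439.9 and 238 to 385 CPM (log2 -0.04, adjusted p = 0.944). Its highest value was in P2 control 1, against 267, 293 and 188 CPM in P2 controls 2, 3 and 4, whereas Meis2 in P2 control 1 was the lowest of the P2 libraries.

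The genes with the largest changes at a mean log2 CPM of at least 5 included several outside the lists. Dlg2, a synaptic scaffold protein (chr7:90476672-92449247, plus strand), went from 325, 288, 114 and 49.3 to 1992, 2331, 971 and 1919 CPM (9.28-fold, log2 3.21 ± 0.57, edgeR adjusted p = 0.00943). Cacnb2, the calcium channel beta subunit found at photoreceptor synapses, went from 65.7, 40.2, 17.8 and 5.97 to 502, 495, 109.7 and 247 CPM (10.3-fold), and its call was lost without P2 control 3 (0.0558). Nfasc, an adhesion protein of axons, rose 8.06-fold, and the uncharacterised gene Gm44196 10.4-fold. In Cacnb2 and Dlg2, P2 controls 1 and 2 were above P2 controls 3 and 4, and P5 control 3 was the lowest P5 library.

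Among the genes that fell most, Csrp2, a LIM domain protein, went from 58.5, 82.1, 133 and 155 to 9.09, 4.90, 17.6 and 7.98 CPM (10.7-fold lower, log2 -3.43 ± 0.43, edgeR adjusted p = 0.004). Abracl fell 8.54-fold and Enho, which encodes a secreted peptide, 7.11-fold. Cntfr, the receptor of ciliary neurotrophic factor, fell 5.34-fold, from 42.6, 46.6, 46.2 and 88.6 to 11.9, 8.61, 12.6 and 8.59 CPM. Fscn1, the actin-bundling fascin, fell 4.86-fold and Rnd3, an atypical small GTPase, 5.26-fold. Ppp1r14b and Gm26735 fell 4.67-fold and 4.61-fold, and all 8 genes named in this paragraph were called in every fit without a library.

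Further genes that fell depended on single libraries. Nlgn1, a postsynaptic adhesion protein, went from 1661, 1026, 1055 and 1560.2 to 221, 121, 595 and 139 CPM (4.93-fold lower, edgeR adjusted p = 0.0181). Its adjusted p was 0.0504, 0.0509 and 0.0571 without P5 controls 1, 2 and 4, and 0.0634 without P2 control 1 and P5 control 1. Mfap4 and Btbd17 were called from all libraries (0.0405 and 0.0474), and only without P2 control 1 or P5 control 3 when 1 was left out. P5 control 3 was the highest P5 library in both, at 39.1 and 75.1 CPM. Adjusted p for Mfap4 was 0.0682, 0.0969 and 0.0861 without P2 controls 2, 3 and 4, 0.0795, 0.0865 and 0.115 without P5 controls 1, 2 and 4, and 0.0729 without P2 control 1 and P5 control 1. For Btbd17 the same fits gave 0.081, 0.101 and 0.108, then 0.0993, 0.117 and 0.122, then 0.079, and it was 0.0509 with no TMM factors.

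Markers of other retinal cells were measured in the rods. Over all tested genes 6.02% were called higher and 4.81% lower, and the counts of these short lists stand against those shares. Progenitor markers summed to 207 to 259 CPM at P2 and 44.8 to 114 CPM at P5, and 3 of 13 tested were lower (Hes5, Lhx2 and Vim). Horizontal cell markers summed to 61.1 to 134 and 29.0 to 44.0 CPM, and both tested members, Onecut1 and Onecut2, were lower. Onecut2, also a gene of early photoreceptor precursors, fell 2.76-fold. These groups did not overlap, and their part in the fall of neurogenic genes was not tested. Amacrine markers summed to 45.5 to 159 and 53.0 to 147 CPM with 1 of 8 lower (Gad2), and ganglion cell markers had 0 of 4 called by edgeR, 0 at an unadjusted p under 0.05 and 0 by DESeq2.

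Other lists overlapped between ages. Their calls are few, in short lists, against 6.02% of all tested genes called higher and 4.81% called lower. Müller glia markers summed to 371 to 666 and 343 to 1093 CPM with 1 of 6 higher (Clu, which rose 4.54-fold, edgeR). Bipolar markers summed to 196 to 406 and 281 to 505 CPM with Prkca higher and Gng13 lower of 6 tested. Microglia markers summed to 29.2 to 180 and 68.8 to 286 CPM with 1 of 8 higher (Tyrobp, at 39.0 CPM in P5 control 3). All 8 had a positive log2 fold change, with a median of 1.34, and 3 had an unadjusted p under 0.05 in edgeR. Pigment epithelium and vascular markers had none of 3 each called by edgeR. At an unadjusted p under 0.05 the numbers were 1 and 0, as they were in DESeq2. Rpe65, the defining isomerase of the pigment epithelium, had no UMI. Of the erythroid list 1 gene was tested, Alas2, and it was higher (2.62-fold). Its call was lost without P2 control 3 (0.0856), P2 control 4 (0.0626), P5 control 1 (0.0658), P5 control 2 (0.0739), P5 control 4 (0.0863) or P2 control 1 and P5 control 1 (0.0787), and with P2 combination 2 in place of P2 control 1 (0.0573). Immediate early and stress genes summed to 706 to 1488 CPM at P2 and 1140 to 3956 CPM at P5, and none of 13 was called by edgeR, while 3 had an unadjusted p under 0.05 and DESeq2 called 2.

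Shares of rods with at least 1 UMI were compared after each rod was thinned to 1000 UMIs, to set cells of different depth side by side. Sag was seen in 40.9%, 32.9%, 19.8% and 10.2% of rods at P2 and in 89.9%, 91.9%, 51.4% and 76.9% at P5, a mean difference of 51.6 percentage points. Nr2e3 was seen in 41.0%, 30.7%, 21.1% and 17.1%, then in 53.1%, 70.2%, 53.5% and 74.2% (35.3 points). Pde6b differed by 26.2 points and Nrl by 12.9. In these 4 genes every P5 library was above every P2 library, which gives the smallest p that 70 splits of 4 against 4 libraries allow, 0.0286 in a two-sided exact permutation test. Adjusted over the 8 genes compared it was 0.0571, so that none passed 0.05.

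Shares of Crx (3.86 points, adjusted p = 0.424), Neurod1 (-8.68 points, 0.514) and Gnat1 (0.403 points, 0.152) overlapped between ages in the exact permutation test. Amacrine cells, which should lack rod transcripts, showed Sag in 4.75% to 10.2% at P2 and 5.19% to 46.9% at P5, the highest in P5 control 1. They showed Pde6b in 0.211% to 0.785% and 0.649% to 5.90%, Nrl in 1.90% to 5.24% and 1.32% to 7.91%, and Nr2e3 in 2.85% to 4.71% and 3.41% to 13.1%. In P2 control 4 the share of rods with Sag, 10.2%, did not exceed the highest amacrine share over the P2 libraries. Whether that share of rods is background was not tested. For Gnat1 the amacrine shares reached 0.127% at P2 and 0.134% at P5, and P2 controls 3 and 4 and P5 control 3 were below them.

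**Figure D4:**
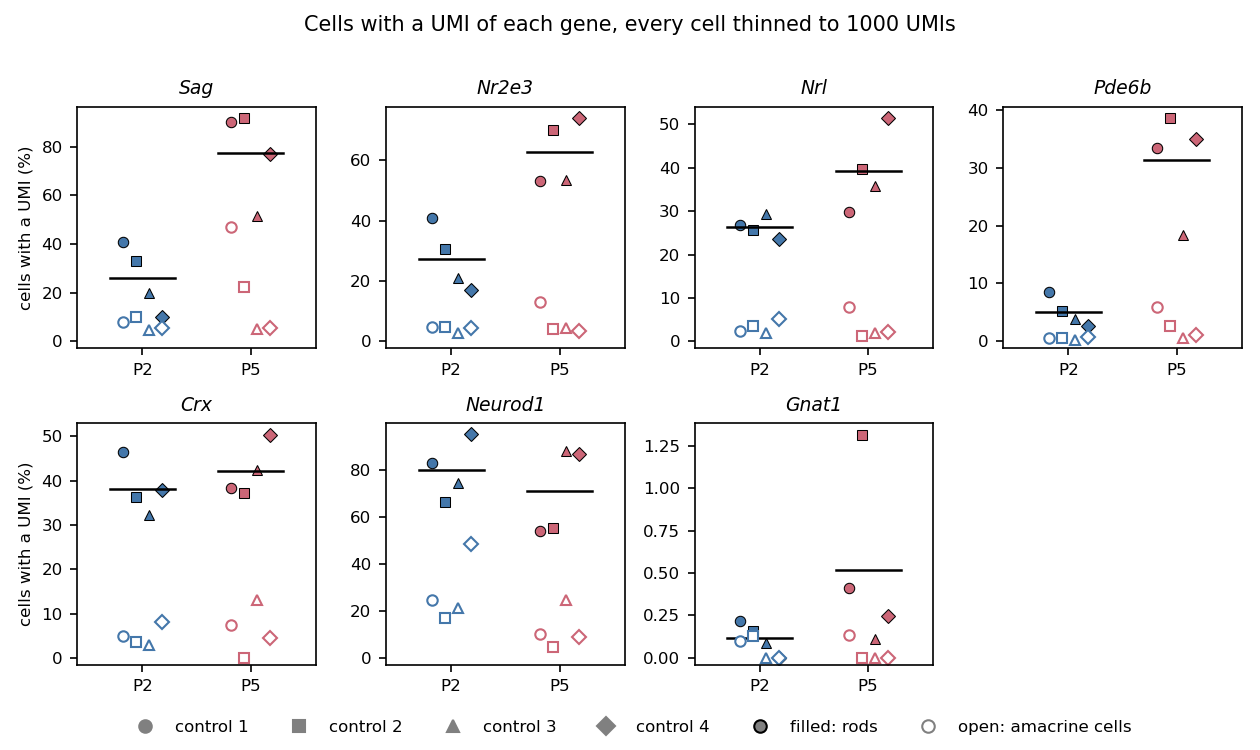
Percent of rods with at least 1 UMI of each gene after thinning every rod to 1000 UMIs, 1 point per control library, P2 and P5 side by side, with amacrine cells as open points and lines at the means of rods. Sag, Pde6b, Nrl and Nr2e3 are higher in rods of every P5 library, and Crx and Neurod1 overlap.

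Whether these changes differ from those of other cells was tested in libraries that hold both, with the library as a block. Against neurogenic cells, the annotated precursors, the age change in rods was higher for 1191 of 13899 genes (8.57%) and lower for 1460 (10.5%), by edgeR's quasi-likelihood test of the interaction. The number higher was 703 to 727 without P2 control 1, P2 control 3, P2 control 4, P5 control 2 or P5 control 4, and without the library block the counts were 207 and 472. Neurogenic cells alone had 731 genes higher (6.1% of 11984 tested) and 313 lower (2.61%) at P5. Phototransduction genes were higher in 15 of 22 and outer segment genes in 19 of 23, with no member lower in either list. Rcvrn rose 2.51 more on the log2 scale in rods than in neurogenic cells (SE 0.54) and Sag 1.98 (SE 0.31). Cilium genes were higher in 18 of 25 and oxidative phosphorylation genes in 17 of 27. For oxidative phosphorylation the median log2 fold change was 0.38 in rods, where 2 of 27 were called, and -0.26 in neurogenic cells. Ribbon synapse genes were higher in 10 of 25 and lower in 2, and glycolysis genes were higher in 2 of 21 and lower in 2.

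The regulators were higher in 10 of 16 and lower in 1 by the same interaction test. Nr2e3 differed by 1.66 (edgeR adjusted p = 0.00187), Nrl by 1.41 (0.00823) and Crx by 0.77 (0.021). The neurogenic cells' own means went from 34.3 to 33.8 CPM for Nr2e3, 23.0 to 14.4 CPM for Nrl and 277 to 184 CPM for Crx. For Nrl and Crx neither the change in rods nor that in neurogenic cells was called by itself. Genes of neurogenesis were lower in 14 of 21 and higher in 2 (Insm1 and Stmn2). Atoh7 fell in both, from 163 to 7.21 CPM in neurogenic cells (log2 -4.42, adjusted p = 0.000322), and the difference of -0.64 was not called (0.209).

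At a mean log2 CPM of at least 5 over both cell types together, the genes with the most negative difference were as follows. Cryab, a small heat shock protein abundant in glia, was not tested in rods and went from 0.138 to 155 CPM in neurogenic cells (difference -5.89). Pcp4 had a difference of -4.62, Ass1 of -4.09 and Cntnap5a of -4.05. Müller glia markers in the cells called neurogenic summed to 416 to 640 CPM at P2 and 2736 to 4592 CPM at P5, without overlap. In the same cells bipolar markers stood at 105 to 137 CPM at P2 and 271 to 499 CPM at P5, vascular markers at 117 to 151 and 237 to 446 CPM, and immediate early and stress genes at 607 to 741 and 1932 to 4112 CPM, also without overlap. Progenitor markers stood at 1038 to 1901 and 1760 to 3801 CPM, and 11 of 14 were lower in the interaction. The part of these differences in the interaction was not tested.

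Against amacrine cells the age change in rods was higher for 145 of 14049 genes (1.03%) and lower for 213 (1.52%). These counts were not stable: leaving out P5 control 1 gave 468 and 467, P5 control 3 gave 383 and 473, and each of the other 6 libraries gave 32 to 64 higher and 65 to 105 lower, with 32 and 65 without P2 control 3. Without the library block they were 3 and 10. Amacrine cells alone had 6 genes higher (0.0514% of 11683 tested) and 1 lower (0.00856%). Only 1 of 22 phototransduction genes (Gnb1) and 1 of 22 outer segment genes (Arl3) were called higher (edgeR). At a mean log2 CPM of at least 5 the difference was largest for Dlg2 (2.998, adjusted p = 0.0124), Rapgef5 (2.96), Hk1 (2.83, adjusted p = 0.00399) and Unc5c (2.76). Hk1 went from a mean of 10.2 to 86.7 CPM in rods and from 34.1 to 40.9 CPM in amacrine cells. In the other direction, Lgr5 went from 20.8 to 350 CPM in amacrine cells and from 29.0 to 16.3 CPM in rods (difference -5.03). Nfix, Mfap4 and Rbfox3 had differences of -3.86, -3.49 and -3.38. Their means in rods went from 22.9 to 26.2, from 82.3 to 13.7 and from 25.6 to 11.3 CPM.

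Amacrine cells held rod transcripts. Phototransduction genes together went from a mean of 992 to 1742 CPM in amacrine cells, with 905 to 3086 CPM over P5 libraries, and Sag from 114 to 398 CPM. In rods of the same libraries their sum went from 2456 to 5451 CPM at P2 to 10514 to 20505 CPM at P5. The difference for Sag, 1.48 with SE 0.50, was not called (edgeR adjusted p = 0.148). P5 controls 2 to 4 held 155, 155 and 88 amacrine cells. P2 control 1 held 6115 of all 9516. They made up 34.5% of its cells, against 9.53% to 18.1% in the other P2 controls. Cells annotated as cones, measured in 4 P2 and 2 P5 libraries, are not shown beside them and were not tested against rods. Their phototransduction sum was above that of rods at P2, with a mean of 10503 CPM (6791 to 14711), and was 11850 CPM at P5 (6876 and 16824). From P2 to P5 their outer segment sum went from a mean of 6124 to 9944 CPM, their cilium sum from 1911 to 3045 CPM and their neurogenic sum from 1896 to 748 CPM. In rods the same sums went from 3726 to 10399 CPM, 1282 to 2468 CPM and 3531 to 1627 CPM, so that the means moved in the same direction in both. How much of the smaller count against amacrine cells comes from their number or from rod RNA was not tested.

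**Figure D5:**
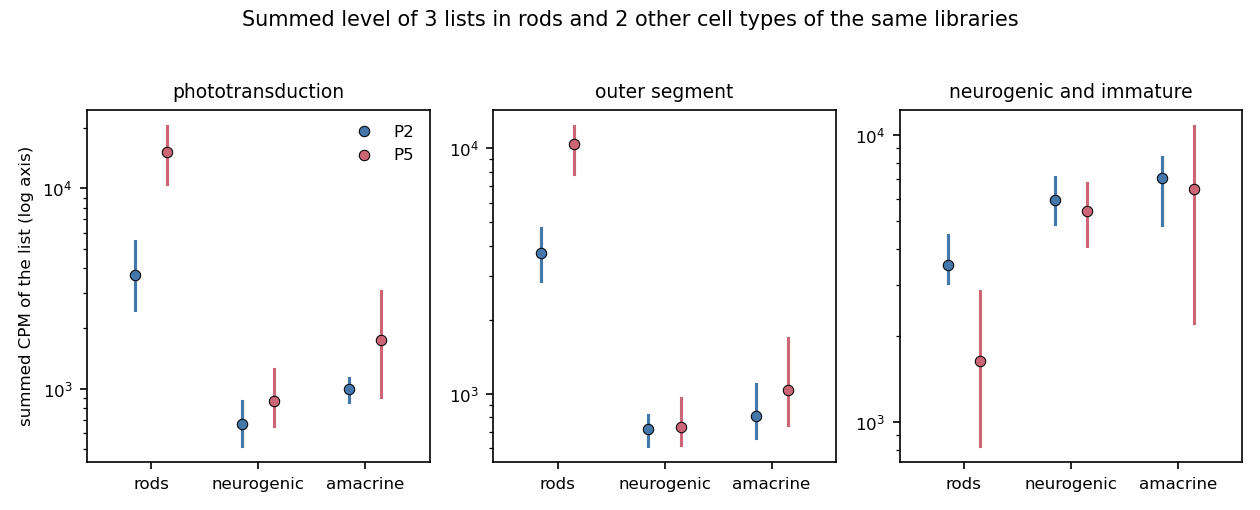
Summed unscaled CPM of the phototransduction, outer segment and neurogenic lists in rods, neurogenic cells and amacrine cells of the control libraries, means over 4 libraries per age with the lowest and highest library. The phototransduction sum in rods stands above those of neurogenic and amacrine cells at both ages, and in amacrine cells it reaches 3086 CPM in 1 P5 library.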

How the data were processed

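Single-cell libraries were made with 10x Genomics 3′ v3.1 chemistry, per the labels' protocols. Cell Ranger with a modified mm10 genome that includes GFP, and Seurat 5, are named in the submitters' processing notes; filters on cells are not given in the sources used here. The authors deposited whole UMI counts for 23260 genes and 79009 cells, with a metadata table of cell type, treatment, library and the percent of mitochondrial UMIs that the authors computed. In the 51427 cells read, the counts summed to the deposited totals. The other 27582 cells were not used. The lowest depth of a rod was 501 UMIs. Libraries were assigned by the metadata's sample column and the labels' titles.

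Counts of rods were summed per library, since cells are not replicates. Genes passed filterByExpr, counts were scaled by TMM, and 4 P5 libraries were tested against 4 P2 libraries with the two-sided quasi-likelihood test of edgeR 4.0.16 (R 4.3.3), adjusted over all genes. The age change was compared between cell types in the same way, with cell type and library as terms. Shares of rods with a UMI were compared after thinning to 1000 UMIs, which left out 0 to 163 rods of a library, by two-sided exact permutation, and shares and levels cover counting error only within a library. Doublets were marked with Scrublet (scanpy 1.11.5, expected percent 6) for an alternative. Promoters came from RefSeq (GRCm38.p6) and gene positions from GENCODE vM21 (GRCm38), which matched 116 of 118 named genes. The fits were tested on simulated counts. There the fit of rods missed most genes given a true log2 change of 1, so a gene not called may still have changed. Barcode starts of the control libraries carry other replicate numbers than the titles.

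The cells and gene lists were chosen with earlier results of these data known. Genes were named by rule: the 12 called genes with the largest change each way among those with non-overlapping libraries and a mean log2 CPM of at least 5, up to 4 called and 2 uncalled members of each list, 4 genes each way per interaction, and 13 set genes. Others (among them Aipl1, Prph2, Rom1, Abca4, Pde6g, Gngt1, Gnb1, Gucy2e, Guca1a, Guca1b, Grk1, Rgs9, Rgs9bp, Dll1, Stmn1, Ctbp2, Bsn, Lbr, Clu and the called marker genes) were chosen after their values were seen. A few genes that these rules name are not reported here. Replicate numbers were not used as pairs in the main fit. Correlations of same-numbered deviations over 5155 genes were mixed, at 0.493, 0.280, 0.147 and -0.105, and do not settle whether the numbers pair the samples.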

Additional observations from a re-analysis of the deposited data

Results flagged for a closer look

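In 94 groups of 4 libraries, the highest or lowest library of 5 stood far from the other 3 by Dixon's test, which flags about 1 group in 20 by chance. P5 control 3 was the library in 4 of them: Gm44196 at 135 CPM against 284 to 312 CPM in the other P5 libraries, Mfap4 at 39.1 against 3.27 to 8.49 CPM, Btbd17 at 75.1 against 9.91 to 11.05 CPM, and Ppp1r14b at 133 against 34.6 to 46.3 CPM. In each, its value lay on the side of the P2 libraries. Cntfr was at 88.6 CPM in P2 control 4, against 42.6 to 46.6 CPM in the other P2 libraries.

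The age change in rods differed from that of another cell type by the interaction test in edgeR. Against amacrine cells it was higher for 145 genes and lower for 213, counts that ranged from 32 to 468 and from 65 to 473 without 1 library. Against neurogenic cells it was higher for 1191 genes and lower for 1460.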

How the results depend on the processing

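Calls in rods numbered 1185 higher and 1181 lower with DESeq2, and 1245 and 1055 with P2 combination 2 in place of P2 control 1, an exchange made because the cell names of each start with the other kind of library. With the replicate number as a block they were 970 and 749, against 806 and 643 without it, and P2 controls 3 and 4 and P5 controls 3 and 4 each correlated better with another number than with their own. Under the block, Gnat1 (adjusted p = 0.0373, edgeR), Prdm1 (0.0446), Rrm1 (0.0455), Pax6 (0.00869) and Gm26883 (0.0374) were called and Cntnap5a (0.0505) was not. Without 1 library the ranges were 358 to 1054 and 214 to 907. Against amacrine cells the counts were 3 and 10 with no library block, 299 and 341 with no filter on low counts, 303 and 584 with DESeq2, and 32 to 468 and 65 to 473 without 1 library. Against neurogenic cells they were 207 and 472 with no library block, and 703 to 1293 and 991 to 1774 without 1 library. Shares of rods passed an adjusted p of 0.05 when thinned to 2000 UMIs for Gnat1 (0.865 points), Sag (54.1), Pde6b (41.7), Nrl (21.1) and Nr2e3 (44.7), a depth that leaves out 1566 of the 2627 rods of P2 control 2, 926 of 2308 in P2 control 3 and 1441 of 4319 in P5 control 1. Without 1 library they ranged from 0.138 to 0.539 points for Gnat1, 46.4 to 60.3 for Sag, 23.8 to 30.6 for Pde6b, 8.79 to 16.02 for Nrl, 31.5 to 39.8 for Nr2e3, 1.09 to 6.62 for Crx and -14.3 to -2.99 for Neurod1, and all but Crx and Neurod1 passed without P5 control 3. At 1000 UMIs Sag, Pde6b, Nrl and Nr2e3 already had the smallest exact p that 70 splits allow. Their lower adjusted p at 2000 UMIs therefore follows from the p of the other genes compared, and is no stronger result for these genes. The cause of the other differences was not tested.

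Of the named genes, 8 that were not called changed the sign of their log2 fold change. With P2 combination 2 in place of P2 control 1, Gins2 was at -0.16, Aurka at -0.10 and Nefm at 0.12, the calls for GFP and Alas2 were lost, and Nrl, Gnat1, Snap25, Ass1 (adjusted p = 0.0282, edgeR), Nrxn3 (0.0381) and Nusap1 (0.0279) were called. With the replicate block, Apoe was at -0.00219 and Meis1 at 0.00196. Meis1 was at 0.023 with no TMM factors and 0.059 with rods thinned, and without P2 control 1 and P5 control 1 Meis1 was at 0.050 and Aurka at -0.20. Without 1 library, Neurod1 lay between -0.53 and 0.10, Gins2 between -0.021 and 0.35, Aurka between -0.16 and 0.28, Bcl2l1 between -0.083 and 0.11, Apoe between -0.49 and 0.40, Nefm between -1.09 and 0.14, Meis1 between -0.20 and 0.22, and Nfix between -0.014 and 0.47. Removing Scrublet doublets moved little (810 and 650 calls), but Scrublet marked 0 cells in P2 control 2 and 1 of 6292 in P5 control 1, so that doublets were in effect not removed in those libraries. A planned fit over all 20 libraries was not run. Gnat1 and Gucy2f rest on low counts, 0.839 to 2.14 and 0 to 1.13 CPM at P2.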
